A study of Bos taurus with 6 samples.

Results

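The 7 genes described here, SNAP25, SNAP91, HOMER1, RIMS1, NCAM2, SYT1 and VAMP2, code for proteins of the synapse and were followed through testis RNA of immature and mature Wandong cattle. They are 7 of the 47249 genes in the deposited table and were chosen by symbol on measured values. SNAP91, HOMER1, RIMS1 and NCAM2 (4 genes) were taken because circular RNAs (circRNAs) from their loci were named by the study as different between bulls and calves in the same libraries, and SNAP25, SYT1 and VAMP2 because neuronal genes had been seen to be high in the library labelled calf 3. The calves (3 animals, 3 months old, immature) and the bulls (3 animals, 3 years old, mature) were healthy and untreated, and 1 library of whole testis RNA was made per animal after removal of ribosomal RNA. Levels are given in FPKM, the fragments per kilobase of transcript corrected for sequencing depth, so levels of different genes are compared per length.

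At a synapse, neurotransmitter is stored in vesicles that fuse with the membrane of the sending cell when calcium enters. Fusion is driven by SNARE proteins on the vesicle and on the membrane, the vesicle membrane is retrieved through clathrin, and the receiving cell holds its receptors in a scaffold. The same families serve secretion elsewhere, and SNARE proteins also act in the acrosome reaction of sperm.

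SNAP25 (ENSBTAG00000008323, chromosome 13, 3478001 to 3561819) is the SNARE of the target membrane and VAMP2 (ENSBTAG00000054934, chromosome 19, 27795436 to 27800940) is its partner on the vesicle. SYT1 (ENSBTAG00000034693, chromosome 5, 8650286 to 9050216) codes for synaptotagmin 1, the calcium sensor of release. RIMS1 (ENSBTAG00000020238, chromosome 9, 11089817 to 11697976) is a scaffold of the active zone, where vesicles dock. SNAP91 (ENSBTAG00000009355, chromosome 9, 23474287 to 23642456) is the clathrin adaptor AP180. HOMER1 (ENSBTAG00000025853, chromosome 10, 10404003 to 10548171) links metabotropic glutamate receptors to the postsynaptic scaffold, and NCAM2 (ENSBTAG00000003301, chromosome 1, 15324270 to 15556567) is an adhesion molecule of the immunoglobulin family. Positions are those of the deposited table, which follows an ARS-UCD assembly, and all 7 overlapped the gene of the same symbol in the RefSeq table of ARS-UCD2.0. The study's methods instead name a UMD assembly as the reference for its reads.

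The gene values below do not separate the linear and circular RNA of a locus, and they include transcripts named antisense. To show what the gene tables do not separate, the primers that the study designed to amplify the circRNAs of 2 of these genes follow. They face away from each other on the linear transcript and give a product across a back-splice junction. They are printed 5′ to 3′, with no base in capitals since no part was marked. Each is 28 bases long, with 46.4% G and C in both HOMER1 primers and 35.7% in both SNAP91 primers.
HOMER1 circRNA, forward primer: aatacaagaactggaggagacgctgaag
HOMER1 circRNA, reverse primer: agctgctgcttccattgtttcacattgg
SNAP91 circRNA, forward primer: tttgcttgttacaacgatggagtgatta
SNAP91 circRNA, reverse primer: gatgtgtagtgactaaagctttgaatac

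The library labelled calf 3 stood apart before any comparison. Markers of Sertoli and Leydig cells were mostly missing from it: GATA4, FSHR, WT1, HSD17B3, CYP11A1 and CYP17A1 were listed at 0, and the summed FPKM of the 5 Leydig cell markers was 0.449, against 1128 to 1388 in the other calves and 1473 to 2725 in bulls. The Sertoli cell marker SOX9 remained, at 13.7 FPKM in calf 3, against 21.9 and 25.6 in the other calves and 9.99 to 10.8 in bulls. All 8 neuron markers were highest in calf 3, with a sum of 952.8 FPKM against 13.6 and 17.7 in the other calves and 31.6 to 40.8 in bulls. The 5 oligodendrocyte markers (sum 12343, at most 10.1 elsewhere) and the 4 astrocyte markers (sum 1781, at most 7.70 elsewhere) were also highest in calf 3. The label of this library goes against its values, so the results below are given with and without it.

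All 7 synaptic genes were highest in the library labelled calf 3, and in the other 5 libraries none exceeded 10.4 FPKM. For SNAP25, calf 3 was at 189.7 FPKM, while calf 1 was at 1.56, calf 2 at 3.26 and the bulls at 1.17, 1.48 and 1.60. SNAP25 was thus 78.8-fold above the mean of calf 1 and calf 2 in calf 3. The other folds of calf 3 over that mean were 15.2 for SYT1, 12.5 for VAMP2, 12.2 for NCAM2, 7.15 for SNAP91, 4.003 for HOMER1 and 3.78 for RIMS1. Among all 23954 genes that reached 1 FPKM in a library, 24.4% were highest in calf 3, and 6.29% were at least 4-fold above the mean of calf 1 and calf 2 there (on the log2(FPKM + 1) scale), as were 5 of the 7 synaptic genes. Since SNAP25, SYT1 and VAMP2 were chosen for that library, these levels are a description. The part of the neuron and glia markers in them was not tested.

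**Figure D1:**
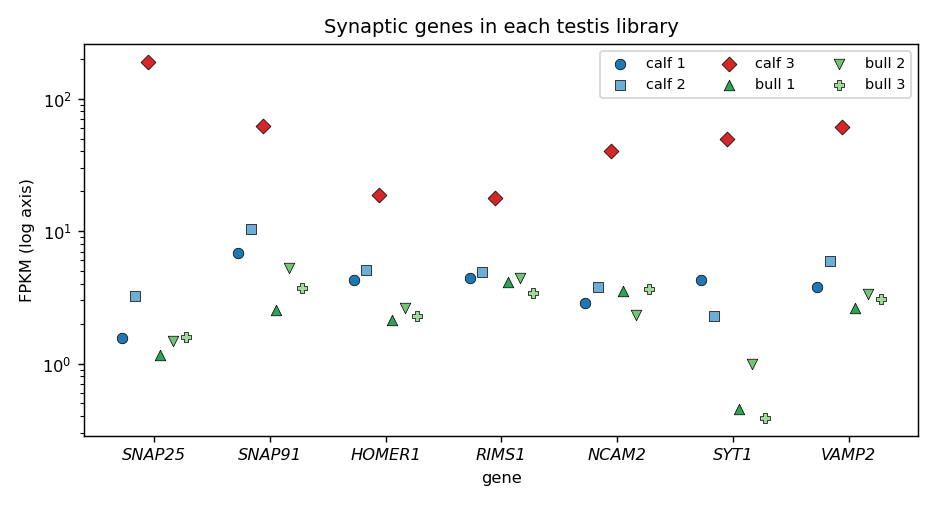
FPKM (log axis) of the 7 synaptic genes in the 6 libraries, 1 point per library. The red diamonds of calf 3 sit above all other points for every gene, from 17.6 FPKM for RIMS1 to 189.7 FPKM for SNAP25, while bulls and calf 1 and calf 2 lie between 0.388 and 10.4 FPKM.

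Without calf 3, the order of the genes in the calves was led by SNAP91, at 8.64 FPKM on average in calf 1 and calf 2, followed by VAMP2 (4.88), HOMER1 (4.70), RIMS1 (4.67), NCAM2 (3.32), SYT1 (3.27) and SNAP25 (2.41), where neighbours overlapped in calf 1 and calf 2 except SNAP91 with VAMP2 and RIMS1 with NCAM2. In bulls the order was RIMS1 (3.999 ± 0.524 FPKM, SD, n = 3), SNAP91 (3.83 ± 1.37), NCAM2 (3.17 ± 0.7498), VAMP2 (3.02 ± 0.366), HOMER1 (2.34 ± 0.253), SNAP25 (1.41 ± 0.221) and SYT1 (0.609 ± 0.328). RIMS1, SNAP91, NCAM2 and VAMP2 followed each other in bulls with differences smaller than their larger SD. SYT1 was thus the lowest of the 7 in bulls.

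The design asks which of these genes differ between immature and mature testis. On log2(FPKM + 1) with limma, genes were called at an adjusted p under 0.05 with a change of 1 or more on the log2 scale. With all libraries, p-values measure the spread between 3 animals a group. Without calf 3, they measure that between calf 1 and calf 2 and between the 3 bulls. With all 6 libraries, none of the 7 genes was called, against 35.7% of the 18115 genes tested called higher in bulls and 9.61% called lower. By unadjusted p under 0.05, 2 of the 7 (HOMER1 and SYT1) passed, against 61.0% of all genes. Without calf 3, 2 of the 7, SYT1 and SNAP91, were called lower in bulls and none higher, against 13.6% of all genes called lower and 37.9% higher. By unadjusted p under 0.05, 4 of the 7 passed in this fit, against 77.5% of all genes. All 7 log2 fold changes were negative in both fits, and the median over the 7 moved from -1.67 to -0.53 when calf 3 was left out, while the median of all genes was 0.43 in both. The 4 hosts were taken on the same contrast, and SNAP25, SYT1 and VAMP2 for the library labelled calf 3. Nothing is therefore read from these shares, signs or medians.

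SYT1 was at 4.24 and 2.30 FPKM in calf 1 and calf 2, and at 0.453, 0.986 and 0.388 in bulls, so the groups did not overlap. In bulls, 61.1% to 78.4% of this gene value came from SYT1-AS1, a transcript named antisense that is described below. The log2 fold change of SYT1 was -2.59 ± 1.02 (SE) with all libraries and -1.39 ± 0.26 without calf 3 (limma, adjusted p = 0.003198), a mean in calf 1 and calf 2 that was 5.37-fold that of bulls. SYT1 passed the filter on low values through the calves alone, and a gene kept in that way had to be higher in them. SYT1, and VAMP2 and SNAP25 below, were chosen for the library labelled calf 3. Their fits with all libraries are therefore a description only.

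VAMP2 was at 3.81 and 5.94 FPKM in calf 1 and calf 2 and at 2.63, 3.36 and 3.06 in bulls, again without overlap. Its log2 fold change of -0.53 ± 0.20 without calf 3 stayed short of the threshold (limma, adjusted p = 0.052163), but without calf 3 VAMP2 was called lower after quantile normalization (-1.12, adjusted p = 0.00255) and upper quartile scaling (-1.06, adjusted p = 0.00243). SNAP25 overlapped, since calf 1 (1.56 FPKM) lay below bull 3 (1.60 FPKM), and its log2 fold change was -0.46 ± 0.24 without calf 3 (limma, adjusted p = 0.131213) and -2.41 ± 1.62 with it. Without calf 3, SNAP25 was called lower after quantile normalization (-1.28, limma, adjusted p = 0.00171) but not after upper quartile scaling (-0.89).

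The circRNA hosts were chosen on the same contrast, so their values, fits and calls are a description only. SNAP91 was at 6.87 and 10.4 FPKM in calf 1 and calf 2 and at 2.52, 5.25 and 3.71 in bulls, with no overlap and a log2 fold change of -1.01 ± 0.29 without calf 3. That call was lost on leaving out a further library besides calf 3: calf 2 (-0.74, short of both thresholds), bull 1 (-0.80, short of the fold threshold alone) or bull 3 (-1.01, short of the threshold on adjusted p alone). HOMER1 was at 4.28 and 5.12 FPKM in calf 1 and calf 2 and at 2.11, 2.61 and 2.28 in bulls, a log2 fold change of -0.77 ± 0.15 without calf 3 and -1.37 ± 0.52 with it. HOMER1 did not overlap either, and its spread among bulls was small. Without calf 3 it was short of the fold threshold alone (limma, adjusted p = 0.00412). In that set HOMER1 was called lower after quantile normalization (-1.42) and upper quartile scaling (-1.29).

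RIMS1 and NCAM2 overlapped between ages. RIMS1 was at 4.41 and 4.92 FPKM in calf 1 and calf 2 and at 4.14, 4.44 and 3.42 in bulls, with a log2 fold change of -0.18 ± 0.16 without calf 3. NCAM2 was at 2.88 and 3.76 FPKM in calf 1 and calf 2 and at 3.56, 2.31 and 3.65 in bulls, and its log2 fold change of -0.06 ± 0.21 without calf 3 turned to 0.09 when calf 2 was also left out and to 0.10 when bull 2 was. In 4 of the 7 genes (SNAP91, HOMER1, SYT1 and VAMP2) calf 1 and calf 2 both lay above every bull, as in 30.9% of all genes tested.

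**Figure D2:**
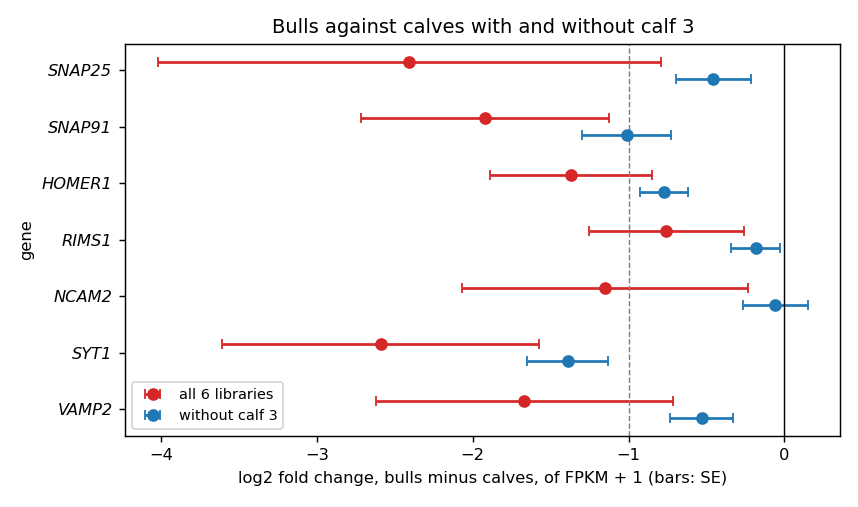
Log2 fold change of FPKM + 1, bulls minus calves, for the 7 synaptic genes (points, with SE bars), with all 6 libraries in red and without calf 3 in blue. The dashed line marks a log2 fold change of -1. Leaving out calf 3 moved every gene toward 0 and shortened the bars, from -2.41 ± 1.62 to -0.46 ± 0.24 for SNAP25.

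Cell type markers moved with age in these libraries as well. The 5 spermatid markers summed to 12925 to 14641 FPKM in bulls and to 2.45 and 2.57 in calf 1 and calf 2, and the 6 Sertoli cell markers to 117.4 to 147.9 against 1456 and 1786. The study's histology describes more Sertoli cells in mature testes. How cell number bears on the lower Sertoli sum in bulls was not tested. The neuron markers summed to 31.6 to 40.8 in bulls against 17.7 and 13.6, a difference that TUBB3 alone gave, at 21.0 to 27.3 FPKM in bulls against 1.70 and 2.77. The other 7 neuron markers overlapped, with sums of 10.6 to 13.5 in bulls against 16.0 and 10.9. Of these 7, NEFM, ELAVL4 and RBFOX3 were lower in every bull, but were under 1 FPKM in calf 1, calf 2 and all bulls. GAP43 and MAP2 were higher in every bull, and NEFL and STMN2 overlapped. The part of these markers in the differences was not tested. In whole tissue, fewer cells of a type and less RNA per cell cannot be told apart.

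The scaling of the libraries set how many of the genes were called. As deposited, the FPKM of all genes summed to 1.07e+06 in calf 1, 1.10e+06 in calf 2 and 5.87e+05 in calf 3. In bulls the sums were 7.32e+05 to 7.77e+05, so the values do not share a common total. The median log2 fold change of all genes was 0.43 as deposited, -0.26 after quantile normalization and -0.09 after scaling to the upper quartile, and the share of called genes that were higher in bulls went from 78.8% to 45.8% and 57.8%. The 7 synaptic genes kept a negative sign under all 3 scalings, with and without calf 3. With all libraries, SNAP91, HOMER1 and SYT1 were called lower under both other scalings. Since the 7 genes were chosen on the same contrast or for calf 3, these signs and calls are a description. Relative to the median of all genes, the differences without calf 3 were -1.82 for SYT1, -1.44 for SNAP91, -1.20 for HOMER1, -0.96 for VAMP2, -0.89 for SNAP25, -0.62 for RIMS1 and -0.49 for NCAM2.

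The transcript table gave 45 transcripts for the 7 genes, of which 7 passed the filter on low values and none of these belonged to SNAP25 or SYT1. With all libraries, 1 of the 7 was called higher in bulls and 1 lower, against 34.8% and 9.37% of the 23212 transcripts tested. Without calf 3, again 1 was called higher and 1 lower, against 36.1% and 13.1%. The transcript called higher in both fits was TCONS_00360384 of RIMS1. The ones called lower were HOMER1-201 with all libraries (log2 fold change -1.25 ± 0.42) and SNAP91-201 without calf 3 (-1.19 ± 0.18). The call of HOMER1-201 was lost on leaving out calf 2 (-1.43), calf 3 (-0.78), bull 1 (-1.25), bull 2 (-1.33) or bull 3 (-1.19). Many transcripts of a gene overlap in position, and how reads were divided among them is not given in the sources used here. Transcript levels and shares below are therefore given as listed.

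The make-up of RIMS1 differed between ages while the gene total overlapped. In calf 1 and calf 2, RIMS1-208 was the main form, at 2.97 and 3.49 FPKM, and in bulls it was at 0.229, 0.0479 and 0.153. TCONS_00360384, an assembled transcript of chromosome 9, 11660874 to 11697976, was at 0.00744 FPKM in calf 1, listed at 0 in calf 2 and at 1.44, 2.22 and 1.21 in bulls. The groups of both transcripts did not overlap. A second assembled transcript, TCONS_00360380 (chromosome 9, 11587221 to 11629889), was at 0.0129 and 0.0374 FPKM in calf 1 and calf 2 and at 1.53, 0.999 and 1.26 in bulls. TCONS_00360384 was the only one of the 3 that passed the filter, with a log2 fold change of 1.36 ± 0.16 with all libraries and 1.37 ± 0.19 without calf 3, and of 0.42 and 0.55, short of a call, after quantile normalization. It reached 1 FPKM in the bulls alone, so it had to be higher in them to be tested, and the call adds nothing to its levels. Both assembled transcripts span a small piece of the locus, and whether they are RIMS1 messenger RNA was not tested.

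In the library labelled calf 3, part of RIMS1 came from other forms. RIMS1-207 (4.11 FPKM), RIMS1-205 (2.91 FPKM) and RIMS1-210 (0.534 FPKM) were listed at 0 in the other 5 libraries. RIMS1-208 was at 0.114 FPKM there, below both other calves.

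SNAP25 also differed in form between calf 3 and the other libraries. SNAP25-202 made up 175.3 of the 189.7 FPKM of calf 3, which is 92.4%. In the other 5 libraries it was at most 0.6455 FPKM, and SNAP25-201 led in each of them, at 0.849 and 1.43 FPKM in calf 1 and calf 2 and 0.973, 0.994 and 0.899 FPKM in bulls. SNAP25-201 therefore stood at like levels in calf 1, calf 2 and bulls, with an overlap between ages.

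The listed make-up of SNAP91 and HOMER1 varied among the bulls. SNAP91-201 was at 2.64 and 3.50 FPKM in calf 1 and calf 2 and at 0.603, 0.727 and 1.02 in bulls. The assembled TCONS_00367922, which covers chromosome 9, 23474287 to 23515045, was at 4.02 and 6.17 FPKM in calf 1 and calf 2 and spread from 0.398 to 4.25 in bulls. A second assembled transcript over nearly the same positions, TCONS_00367921, carried 60.3% of SNAP91 in bull 1, 5.21% in bull 2 and 21.3% in bull 3, against 3.13% and 7.13% in calf 1 and calf 2. HOMER1-201 carried 39.3% to 56.4% of HOMER1 and the assembled TCONS_00029426 23.6% to 52.9%, over the 6 libraries. Bull 3 differed from the rest in HOMER1, since the assembled TCONS_00029428 carried 37.1% there and at most 0.0952% in any other library. NCAM2-209 gave 93.3% and 94.4% of NCAM2 in calf 1 and calf 2 and 66.0%, 1.304% and 72.8% in bulls, where NCAM2-203 was at 1.14, 2.02 and 0.994 FPKM.

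**Figure D3:**
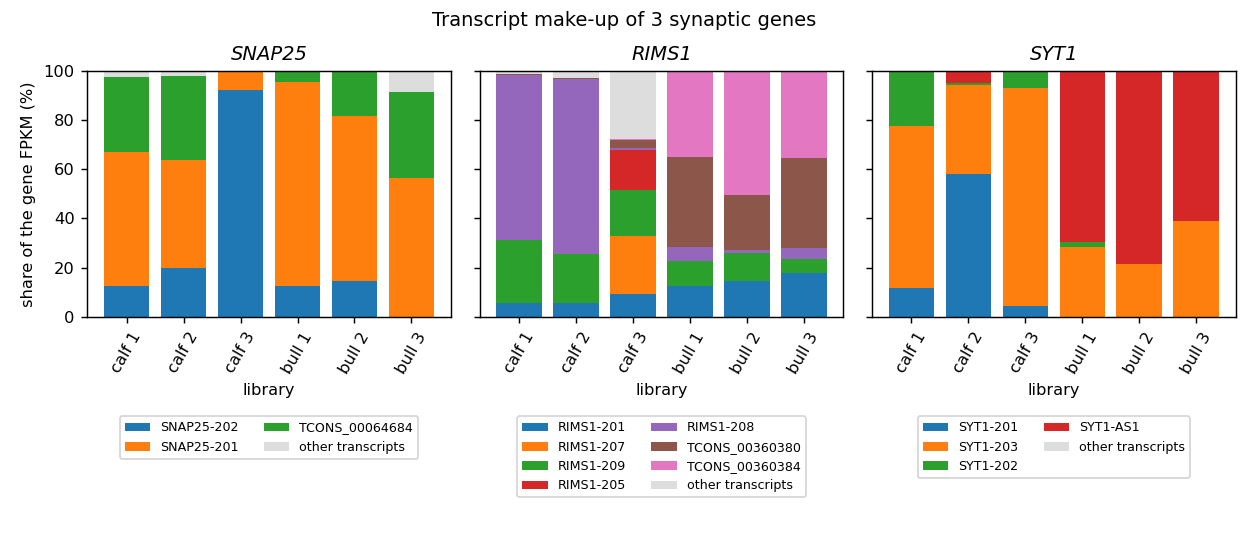
Share of the gene FPKM (%) carried by each transcript of SNAP25, RIMS1 and SYT1 in the 6 libraries, 1 stacked bar per library, with transcripts under 15% in every library in grey. RIMS1-208 fills most of the bar in calf 1 and calf 2 and little in bulls, SNAP25-202 fills 92.4% of the bar in calf 3, and SYT1-AS1 fills 61.1% to 78.4% of the bar in bulls.

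SYT1 in bulls was mostly a transcript named antisense. SYT1-AS1 (chromosome 5, 8930189 to 8981410) was at 0.315, 0.773 and 0.237 FPKM in bulls, which is 69.5%, 78.4% and 61.1% of the gene value, and at 0.0241 and 0.114 FPKM in calf 1 and calf 2, and it was listed at 0 in calf 3. The 3 sense transcripts of SYT1 summed to 0.138, 0.213 and 0.151 FPKM in bulls and to 4.22 and 2.19 in calf 1 and calf 2. Calf 1 and calf 2 were thus 19.1-fold above bulls on average in the sense sum, against 5.37-fold in the gene value. SYT1-201 was listed at 0 in all 3 bulls and was at 0.487 and 1.34 FPKM in calf 1 and calf 2.

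VAMP2 also had a transcript named antisense. VAMP2-AS1 (chromosome 19, 27798089 to 27800940) was at 0.179, 0.604 and 0.348 FPKM in bulls, from 6.80% to 18.0% of the gene value, and at 0.0811 and 0.0628 FPKM in calf 1 and calf 2. Without it, VAMP2 summed to 3.73 and 5.88 FPKM in calf 1 and calf 2 and to 2.45, 2.76 and 2.71 in bulls, and the groups still did not overlap. RIMS1-AS1 was highest in calf 3, at 1.90 FPKM or 10.8% of RIMS1, and at most 0.0439 FPKM elsewhere. The libraries were made to keep strand, per the study's methods. Whether strand was used in the assignment of reads is not given in the sources used here, so whether reads of a gene and of its antisense partner were kept apart is not known.

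**Figure D4:**
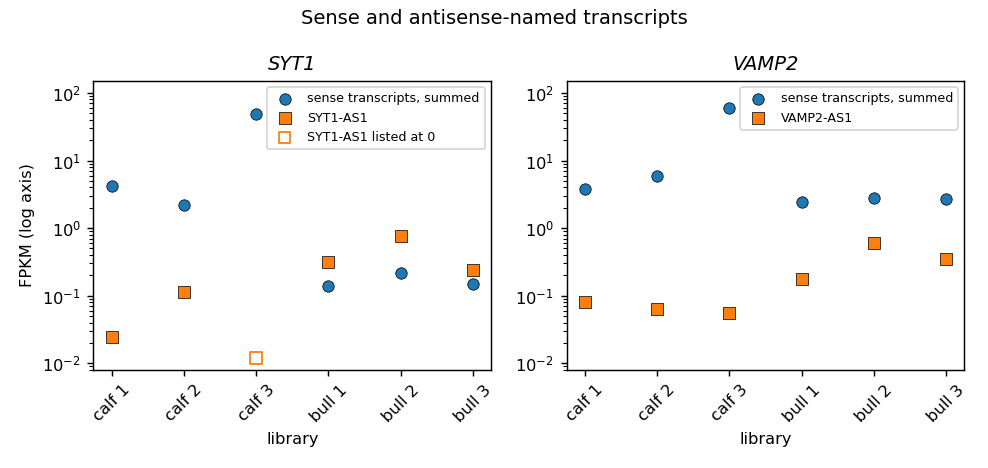
FPKM (log axis) of the summed sense transcripts (circles) and of the transcript named antisense (squares) of SYT1 and VAMP2 in the 6 libraries, with an open square for a value listed at 0. In bulls SYT1-AS1 lies above the sense sum, and in the calves far below it, while VAMP2-AS1 stays below the sense sum in every library.

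The close relatives of the 7 genes were measured beside them. Of 32 paralogs listed, 31 entries were found and 20 passed the filter. With all libraries, 2 were called higher in bulls (SNAP29 and SYT5) and 4 lower (HOMER2, RIMS4, NCAM1 and SYT14), with a median log2 fold change of -0.54, where all genes had 35.7% higher and 9.61% lower. Without calf 3, 4 of the 20 were called higher and 8 lower, with a median of -0.00480, beside 37.9% and 13.6% of all genes.

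Among the SNAREs, SNAP29, which serves fusion inside the cell, was at 5.51 and 7.74 FPKM in calf 1 and calf 2, 8.42 in calf 3 and 66.2, 55.5 and 58.9 in bulls. The log2 fold change of SNAP29 was 2.91 ± 0.19 (SE, limma, adjusted p = 6.94e-05), and calf 3 lay near the other calves. SNAP23, the broadly expressed relative of SNAP25, was above SNAP25 in every library but calf 3, at 15.4, 12.8 and 10.7 FPKM in calves and 10.8, 11.7 and 11.2 in bulls, with a log2 fold change of -0.18. SNAP47 was called higher without calf 3 only (log2 fold change 1.09). VAMP5, VAMP7 and VAMP8 were called lower without calf 3, at -1.42, -1.06 and -1.38, while VAMP1 reached 52.3 FPKM in calf 3 against 2.06 to 4.36 elsewhere, and VAMP4 was at 13.9 there against 3.41 to 6.50.

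Among the synaptotagmins, SYT5 (0.517 and 0.570 FPKM in calf 1 and calf 2, 4.70, 6.54 and 7.78 in bulls) and SYT7 (0.413 and 0.851 against 10.9, 7.07 and 8.90) were called higher in bulls without calf 3 (log2 fold change 2.23 for SYT5 and 2.60 for SYT7), but both were under 1 FPKM in calf 1 and calf 2, so among these 5 libraries their direction was fixed by the filter, as that of SYT1 was. SYT11 and SYT14 were called lower, at -1.52 and -1.07. SYT4, SYT9 and SYT13 passed the filter and were not called in either fit. The other 9 synaptotagmins listed were under the filter, and SYT8 and SYT15 stayed under 0.14 FPKM in every library. SYT11 reached 231.7 FPKM in calf 3, above SYT1.

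RIMS4 was at 12.1 and 15.2 FPKM in calf 1 and calf 2, 9.74 in calf 3 and 1.63, 1.36 and 1.74 in bulls, a log2 fold change of -2.36 ± 0.21 (limma, adjusted p = 0.000222). HOMER2 was at 4.27, 8.24 and 4.45 FPKM in calves and 0.665, 0.848 and 1.02 in bulls, a log2 fold change of -1.81 ± 0.26 (limma, adjusted p = 0.0017). RIMS4 and HOMER2 thus separated the ages with calf 3 included, which RIMS1 did not. HOMER3 lay between 4.32 and 6.61 FPKM in all libraries. NCAM1 was at 8.90 and 19.2 FPKM in calf 1 and calf 2, 60.6 in calf 3 and 4.06, 4.48 and 4.13 in bulls, and was called lower in both fits. PICALM, the ubiquitous relative of SNAP91, was at 41.8 to 86.2 FPKM, above SNAP91 in every library, and was called in neither fit. RIMS2 and RIMS3 passed no filter and were highest in calf 3, at 8.01 and 9.70 FPKM.

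The wider lists of synaptic genes held 185 symbols besides the 7 genes, with 184 entries found, since CNTNAP2, DLGAP2 and VAMP3 were not matched and some symbols have more than 1 entry. Of the 132 that passed the filter, 14 were called higher in bulls and 16 lower with all libraries, and 32 higher and 22 lower without calf 3. These shares were 10.6% higher and 12.1% lower, beside 35.7% and 9.61% of all genes, and 24.2% and 16.7% without calf 3, beside 37.9% and 13.6%. Of the calls without calf 3, 12 of the 32 higher were under 1 FPKM in calf 1 and calf 2 and 4 of the 22 lower were under 1 FPKM in all bulls, as were 55.2% and 14.2% of such calls over all genes. Such a gene passed the filter through the higher group or calf 3, which fixed its direction. The median log2 fold change of the 132 genes was -0.30 with calf 3 and 0.31 without it. The count of 16 fell to 9 without calf 2 or bull 3 and to 10 without bull 1 or bull 2. Of the 175 list genes that reached 1 FPKM, 117 (66.9%) were highest in calf 3 and 77 were at least 4-fold above the mean of calf 1 and calf 2 there. Over all genes that reached 1 FPKM, these shares were 24.4% and 6.29%.

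Of the 25 genes of vesicle fusion, 17 were tested and none was called by limma with all libraries, with 6 under an unadjusted p of 0.05. Without calf 3, 2 were called higher. Of all genes tested, 35.7% were called higher and 9.61% lower with all libraries, and 61.0% had an unadjusted p under 0.05. Without calf 3, 37.9% were called higher and 13.6% lower, and these shares stand beside the lists that follow. RAB3A, the vesicle GTPase that RIMS1 binds, was at 91.1 FPKM in calf 3 and at 0.324 to 1.06 elsewhere. NSF, which takes SNARE complexes apart, was at 77.4 FPKM in calf 3, 8.04 and 10.4 in the other calves and 13.5 to 18.1 in bulls.

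Of the 18 vesicle proteins, 6 were tested and 1 was called, SYPL1, at 20.2 to 34.8 FPKM in calves and 80.5 to 94.2 in bulls (log2 fold change 1.77). GAD1, which makes the transmitter GABA, and SYP, the vesicle protein synaptophysin, were at 108.8 and 105.9 FPKM in calf 3 and under 1 FPKM in all other libraries. Of the 15 active zone genes, 12 were tested, with LIN7B called higher (1.42) and CASK lower (-2.31). PPFIA2 (22.5 FPKM) and CACNB4 (22.4 FPKM) led this list in calf 3.

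The endocytic genes, which work with SNAP91, were all expressed, and 22 of 22 were tested. With all libraries 5 were called higher in bulls and 5 lower, beside 35.7% and 9.61% of all genes. Without calf 3 these were 5 and 6, beside 37.9% and 13.6%. AP2B1 and AP2A1, subunits of the clathrin adaptor AP2, were at 36.5 to 50.8 and 12.2 to 25.1 FPKM in calves and at 299.0 to 344.8 and 74.6 to 87.6 in bulls (log2 fold change 2.82 for AP2B1 and 2.33 for AP2A1). BIN1 and SH3GL2, which bend membrane, were called lower, at -3.11 and -2.90, and SH3GL2 was at 7.39 and 7.24 FPKM in calf 1 and calf 2 and at most 0.942 in bulls, so that it passed the filter through the calves alone and had to be higher in them. HSPA8, the chaperone that uncoats vesicles, led the list in calf 3 at 538.0 FPKM and was called lower in bulls (-1.22), and CLTC, the clathrin heavy chain, followed at 150.2 FPKM.

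Of 25 entries for postsynaptic scaffold and receptors, 17 were tested. With all libraries 2 were called higher (PSD3 and ITPR1, at 1.65 and 1.20) and 2 lower (CAMK2B and DLGAP3, at -2.34 and -1.38), beside 35.7% and 9.61% of all genes. Without calf 3 these were 9 and 1, beside 37.9% and 13.6%. DLG2 and GRIA3 led in calf 3, at 56.3 and 44.6 FPKM, and DLG2 was at 0.358 and 0.588 FPKM in calf 1 and calf 2 and at 9.18 to 17.8 in bulls. Of 21 adhesion entries, 12 were tested. One entry of NRXN3, a presynaptic partner in adhesion, was called higher with a log2 fold change of 4.97, at 0.319 and 0.207 FPKM in calf 1 and calf 2, 11.5 in calf 3 and 74.4, 91.6 and 87.3 in bulls. The other NRXN3 entry was under 0.14 FPKM in bulls and at 19.9 in calf 3. NEO1 and EPHA5 were called lower (-1.54 and -1.12), and CNTN1 (181.5 FPKM) and CNTN2 (75.1 FPKM) led in calf 3.

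Of 23 SNAREs of other cell compartments that reached 1 FPKM, 5 (21.7%) were highest in calf 3, against 24.4% of all genes, and none was at least 4-fold above the mean of calf 1 and calf 2, against 6.29%. STX18 and STX8 were called higher in bulls (2.70 and 1.21) and STX10 and STX4 lower (-1.17 and -1.04), while STX7 (41.8 FPKM) and VTI1B (38.3 FPKM) led in calf 3. Of 16 genes of acrosome exocytosis, 11 were tested and 1, the calcium channel ITPR1, was called higher with all libraries, while RAB3A and NSF again led in calf 3. Of the list genes called without calf 3, all 22 called lower remained so and no direction turned under quantile normalization or upper quartile scaling, but 15 and 20 of the 32 called higher remained.

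**Figure D5:**
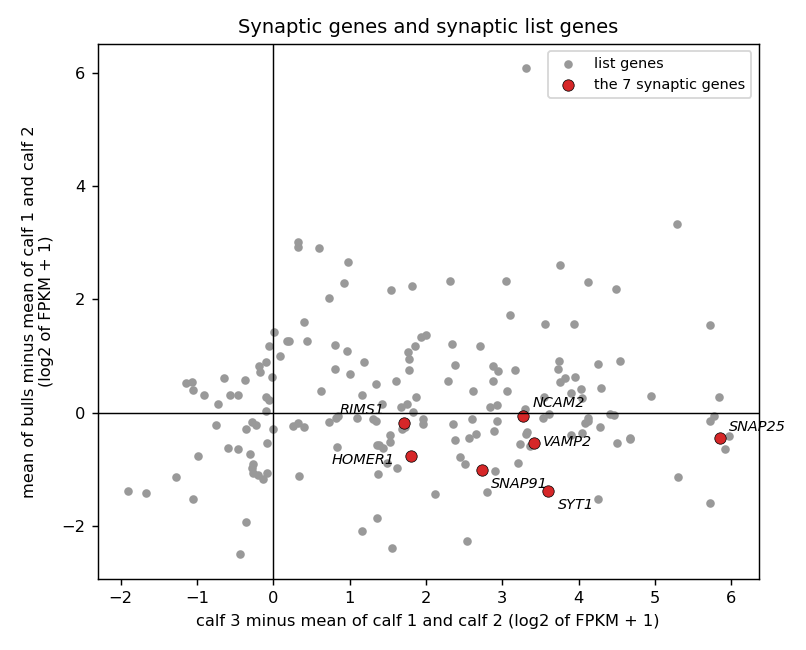
Each point is a gene, plotted by calf 3 minus the mean of calf 1 and calf 2 (horizontal) and the mean of bulls minus that same mean (vertical), both in log2 of FPKM + 1. The 7 synaptic genes in red lie right of 0 and at or below 0 on the vertical axis, while the grey list genes reach up to 6.08 for NRXN3 on that axis. The axes share calf 1 and calf 2, so no relation is read between them.

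The genes whose profile over the 6 libraries was nearest to each synaptic gene were taken by Euclidean distance of log2(FPKM + 1) among 20526 genes with a symbol. All of these nearest genes were highest in calf 3, which follows from the choice by profile, so nothing is read from it. For SNAP25 these were TPPP, PAQR6 and SLC1A3 (distances 0.79 to 0.93), and SLC1A3 is a transporter of astrocytes. For SNAP91 they were IGSF8, KIF21A and CAV2 (0.61 to 0.80), for HOMER1 GATAD2B, C7H5orf24 and MOB3B (0.24 to 0.48), and for RIMS1 ATG4C, JPH1 and OCIAD2 (0.33 to 0.44). For NCAM2 they were HIPK2, EML2 and DOCK9 (0.55 to 0.72), for SYT1 HSPB8, DOK6 and NRBP2 (0.55 to 0.69), and for VAMP2 DOCK9, the entry named RF01684 and TRAK2 (0.78 to 0.82). None of the 7 was among the nearest genes of another.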

How the data were processed

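Strand-specific libraries of total RNA of 6 testes, depleted of ribosomal RNA, had been sequenced, and per the study's methods reads were mapped by TopHat2 and transcripts assembled by StringTie. The authors deposited FPKM per gene and per transcript for each library, and the methods name Cuffdiff and Ballgown for circRNA levels, while the tool for these gene tables is not given in the sources used here. The study lists read totals per library, but the tables hold no counts, so the fragments behind each value are unknown, and whole reads could not be recovered: at most 3.60% of low genes shared a common ratio between libraries. Genes and transcripts with at least 1 FPKM in at least 3 of 6 libraries were fitted with limma 3.58.1 (R 4.3.3, empirical Bayes trend) on log2(FPKM + 1), a scale that understates the change of low genes, with Benjamini-Hochberg adjustment over all features. The procedure was tested on simulated data. The members and lists were chosen with earlier results of these data known. Named were the 7 genes, their paralogs, in each other list the 2 largest calls each way with all libraries and the 2 highest genes of calf 3, and the 3 nearest profiles. Figures used matplotlib 3.10.9. Alternatives were the pseudocount (0.1), no filter, both scalings, array weights, the replicate number as a block and leaving out each library, and those that left out calf 3 together with another change were chosen after seeing the data. The replicate numbers did not pair the animals. Published circRNA levels, proteins and promoters were not analysed here.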

Additional observations from a re-analysis of the deposited data

How the results depend on the processing

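With all libraries, the count of called synaptic genes of 0 became 1 with a pseudocount of 0.1 (SYT1), 3 with quantile normalization, 3 with upper quartile scaling, 2 with array weights and 0 to 2 on leaving out 1 library: SNAP91 and HOMER1 without calf 1 (-2.51 and -1.72), SYT1 without calf 2 (-3.36). Without calf 3, the count of 2 became 1 with no filter, 5 with quantile normalization, 4 with upper quartile scaling, 1 with array weights and 1 to 2 on leaving out a further library. The log2 fold change of NCAM2 without calf 3 ranged from -0.21 to 0.10 on leaving out a further library, turning from -0.06 to 0.09 without calf 2 and 0.10 without bull 2, and no other synaptic gene turned. For the lists, the 14 called higher became 7 under both scalings, 32 with array weights and 11 to 32 on leaving out 1 library, and the 16 called lower became 41 (quantile), 33 (upper quartile) and 9 to 22. Without calf 3, the 32 higher became 15 and 20, and the 22 lower became 42 and 38. Of member transcripts, the 1 higher became 2 with no filter and 0 (quantile), and the 1 lower became 2 (pseudocount 0.1), 4 under both scalings and 0 to 2 on leaving out 1 library. Without calf 3, the 1 higher became 3 (no filter) and 0 (quantile), and the 1 lower became 3 (pseudocount 0.1), 2 (no filter), 5 under both scalings and 1 to 2 on leaving out a further library. The cause of these changes was not tested. Deviations of same-numbered animals correlated at 0.0277, 0.0246 and 0.0341, too weakly to pair them, although every animal correlated best with its own number (calf 1 with bull 2 at 0.0221). With the replicate block, the called synaptic genes stayed at 0, the lists went from 14 higher and 16 lower to 13 and 15, and the member transcripts stayed at 1 and 1, with SNAP91-201 (-2.10) in place of HOMER1-201 as the one called lower. The fragments behind each FPKM value are unknown.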

Other observations

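The genes that name a transmitter were not all high in the library labelled calf 3. They were looked at after their values were seen. GAD1 (108.8 FPKM) and GAD2 (71.1 FPKM), which make GABA, and SLC32A1 (20.4 FPKM), which loads it into vesicles, were at most 0.835 FPKM in the other 5 libraries. Of the glutamate transporters of vesicles, SLC17A6 was at 23.6 FPKM in calf 3 and at most 0.185 elsewhere, while SLC17A7 was at 0.0508 FPKM in calf 3, listed at 0 in calf 1 and calf 2, and at 0.240, 0.385 and 0.615 in bulls. SLC18A3, which loads acetylcholine, was at most 0.198 FPKM in any library. STX1A, the partner of SNAP25 in the fusion complex, was at 1.43 FPKM in calf 3, below calf 1 (1.79) and calf 2 (2.25).

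Some genes of receptors and adhesion, also chosen after their values were seen, were higher in bulls, where SYT1 was lower. GRIN2B was at 0.614 and 0.925 FPKM in calf 1 and calf 2 and at 4.98, 12.4 and 7.66 in bulls, and GRIA1 at 0.721 and 0.198 against 6.11, 6.62 and 5.59. Both were called higher without calf 3, with log2 fold changes of 2.33 and 2.30, and not with it. They were under 1 FPKM in calf 1 and calf 2, so among these 5 libraries the filter fixed that direction. NRXN2 was at 1.02 and 0.857 FPKM in calf 1 and calf 2 and at 8.08, 7.93 and 7.27 in bulls, with a log2 fold change of 2.18 without calf 3.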
